A study of Rattus norvegicus with 22 samples.

Results

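The comparison described here is between the lungs of rats killed 2 h after a mild pulmonary embolism (2-h Mild PE) and those of rats killed 2 h after an injection of the carrier fluid alone (2-h Vehicle). Rats were assigned by their sample titles, and the comparison holds 7 of the 22 rats of the series: 4 with Mild PE and 3 with Vehicle. All were male Sprague-Dawley rats of about 350 g according to the labels. Mild PE rats received 1300000 polystyrene microspheres of 25 micron per 100 g body weight through the right jugular vein, as 0.10 ml per 100 g of a 10% suspension in 0.01% Tween 20. Vehicle rats received 0.15 ml per 100 g of 0.01% Tween 20, so the volume injected also differed between the groups. The lungs of both groups were rinsed with 8 ml of saline before excision, which removes loose cells of the airspaces, and RNA of the right lung was hybridised to an Affymetrix rat genome array, 1 array per rat. Microspheres of this size lodge in the small arteries of the lung and do not dissolve, and as a model of embolism they bring little thrombosis or platelet activation of their own. The doses of 2000000 microspheres per 100 g (Severe PE, 4 rats at 2 h, as 0.15 ml per 100 g of the same suspension) and the 18-h groups (3 Vehicle, 4 Mild PE and 4 Severe PE rats) are used only to show where the 2-h response to the lower dose differs.

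When an arterial branch of the lung is blocked, blood is diverted into the open vessels and the wall of the vessel is deformed. Mechanical stress, growth factor signals and cytokines switch on immediate early genes, transcription factors such as Egr1, Fos and Atf3 whose transcription needs no new protein. Tumor necrosis factor (Tnf) and interleukin 1 beta (Il1b) act through nuclear factor kappaB (NF-kB), which in turn drives genes of chemokines that attract neutrophils (Cxcl2) and monocytes (Ccl2), and of inhibitors that end the signal.

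The values are log2 signals of probesets, sets of short probes against 1 transcript, on a scale where 4 is the floor set here and values at the floor have no order. A difference is Mild PE minus Vehicle on the log2 scale with its standard error (SE), and adjusted p-values are from limma with Benjamini-Hochberg adjustment over all probesets. A probeset was called changed where the means differed 1.5-fold or more and the adjusted p was under 0.05. Of 31042 probesets tested, 103 changed (0.332%), of which 78 were higher (0.251%) and 25 lower (0.0805%) after Mild PE. Of 14217 genes, each read by its brightest probeset, 61 changed (0.429%), 47 higher (0.331%) and 14 lower (0.0985%). By sign alone 7630 of the 14217 differences counted as above 0 and 6587 as below. These counts include 416 genes at the floor in all 7 rats, which have no order. Among the changed genes 37 were at least 2-fold higher and 16 at least 4-fold higher, and 10 were at least 2-fold lower. The 4 arrays of Mild PE were closer to each other (correlation over probesets 0.983 to 0.985) than the 3 of Vehicle (0.971 to 0.982), and arrays of different groups correlated at 0.965 to 0.979. On 2-h Vehicle rat 3 the 5′ end of transcripts was weaker than on the other 6 arrays, with a log2 difference between 3′ and 5′ Actb probesets of 1.19 against 0.82 to 0.97. Without that rat 128 probesets changed, of which 63 were among the 103. The count was 106 without Vehicle rat 1 and 51 without Vehicle rat 2, and it fell to 15, 13, 17 and 44 without Mild PE rats 1, 2, 3 and 4. Of the 61 changed genes 4 kept the call in all 7 of these fits without 1 rat, 25 in 1 fit and 6 in none. The number of fits that kept the call is given below for the changed genes whose rise or fall is described.

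Read by the brightest probeset of each gene, the 3 largest rises were those of the secreted inflammatory signals Tnf, Cxcl2 and Ccl2. Tnf, the cytokine that acts on nearly all cells of the vessel wall, read 7.87, 7.25 and 6.90 in the Vehicle rats and 11.71, 11.47, 11.25 and 11.40 in the Mild PE rats. All 4 Mild PE rats lay far above all Vehicle rats, and Tnf was 17.3-fold higher (log2 difference 4.11, SE 0.25, adjusted p = 0.0103, kept in 4 of 7 fits). Both of its probesets changed. Il1b, the second of the early cytokines, read 9.87, 9.0 and 8.70 after Vehicle and 12.54, 12.47, 12.54 and 11.97 after Mild PE. It was 9.12-fold higher (3.19, SE 0.31, adjusted p = 0.0303, kept in 1 of 7 fits). Il10, a cytokine that restrains macrophages, was at the floor in all 3 Vehicle rats and read 7.28, 6.71, 7.30 and 6.35 after Mild PE, at least 7.52-fold higher (adjusted p = 0.0238 in limma, kept in 1 of 7 fits). In whole lung tissue more RNA per cell and more cells of the type that makes it cannot be told apart, which holds for each rise and fall given here.

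Of the chemokines, which guide leukocytes, Cxcl2 attracts neutrophils. It read 6.73, 6.67 and 5.88 after Vehicle and 10.59, 10.20, 9.70 and 10.41 after Mild PE, 13.9-fold higher (3.80, SE 0.30, limma adjusted p = 0.0204). Ccl2, the main attractant of monocytes, read 7.34, 8.16 and 7.08 after Vehicle and 11.30, 11.37, 10.83 and 11.05 after Mild PE, 12.2-fold higher (3.61, SE 0.29, limma adjusted p = 0.0204). Ccl3, which macrophages make, read 9.71, 9.07 and 8.65 after Vehicle and 12.12, 12.01, 11.95 and 11.89 after Mild PE, 7.21-fold higher (2.85, SE 0.25). The calls of Cxcl2, Ccl2 and Ccl3 were each kept in 2 of 7 fits, although the groups did not overlap for any of them, as for 8.34% of all genes in that direction. Ccrl2, an atypical receptor that binds the attractant chemerin, rose by 2.30 (SE 0.21, kept in 1 of 7 fits). Of 16 CC chemokines measured 2 rose and none fell, and of 15 CXC and other chemokines 1 rose and none fell. Over all genes 0.331% rose and 0.0985% fell. The median log2 difference was 0.41 for the CC and 0.22 for the CXC list, against 0.006 over all genes. At an unadjusted p under 0.05, 6 of the CC list were higher and 1 lower, and 5 of the CXC list were higher and 3 lower. At that cutoff 8.53% of all genes were higher and 7.01% lower. The chemokines above 2-fold that missed the threshold in limma were Cxcl10 (3.34, adjusted p = 0.12), Xcl1 (2.46, adjusted p = 0.14), Ccl4 (1.82, adjusted p = 0.15), Ccl9 (1.45, adjusted p = 0.25), Ccl24 (1.44, adjusted p = 0.24), Ccl7 (1.43, adjusted p = 0.051) and Cxcl11 (1.37, adjusted p = 0.43). On the other side Ccl19 (-0.89, adjusted p = 0.16), Cxcl13 (-0.76, adjusted p = 0.32), Cxcl6 (-0.76, adjusted p = 0.35) and Cxcl3 (-0.32, adjusted p = 0.19) were the 4 below 0 at an unadjusted p under 0.05. Cxcl1, like Cxcl2 an attractant of neutrophils, differed by 0.09 (SE 0.24, limma adjusted p = 0.934), and its difference turned to -0.0138 without Vehicle rat 2.

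**Figure D1:**
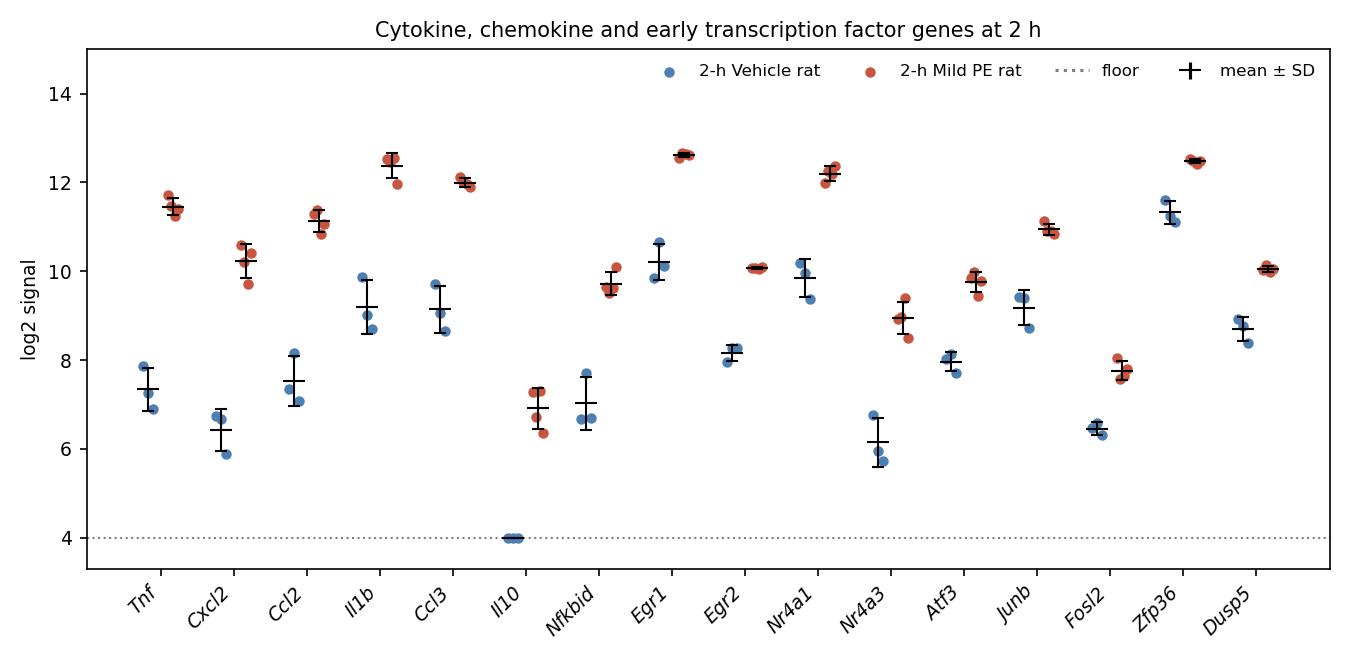
Log2 signal of 16 genes of cytokines, chemokines and early transcription factors in each rat, with 2-h Vehicle rats in blue and 2-h Mild PE rats in red; black bars are the mean ± SD and the dotted line is the floor of 4. The red points lie above the blue points for each gene, and for Il10 all 3 Vehicle rats are at the floor.

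The NF-kB pathway itself was read through 18 genes of subunits, inhibitors and feedback. All 18 differences were above 0 and 15 had an unadjusted p under 0.05, against 8.53% of all genes in that direction; the median log2 difference was 0.76. Only Ier3 and Zfp36 passed the threshold. Ier3, an early survival gene, read 10.76, 11.13 and 10.80 after Vehicle and 12.63, 12.50, 12.38 and 12.36 after Mild PE, 2.97-fold higher (1.57, SE 0.12, limma adjusted p = 0.0204). Zfp36, a protein that marks Tnf and other messenger RNAs for decay, rose by 1.15 (SE 0.12, limma adjusted p = 0.0379). The inhibitors Nfkbia (0.75, adjusted p = 0.070), Nfkbiz (1.18, adjusted p = 0.070) and Tnfaip3 (1.37, adjusted p = 0.083) and the survival gene Birc3 (1.40, adjusted p = 0.12) had differences of like size that missed the threshold in limma. Nfkbid, a nuclear inhibitor of the IkappaB family that was in none of the lists, read 6.66, 7.71 and 6.70 after Vehicle and 9.66, 9.52, 9.62 and 10.10 after Mild PE (2.69, SE 0.30). Map3k8, a kinase that carries Tnf and Toll-like receptor signals to ERK, rose by 1.30 (SE 0.15, limma adjusted p = 0.0487). The kinase Pim1 rose by 1.42 (SE 0.15), and Cd83, a surface marker of activated dendritic and B cells, read 10.16, 10.18 and 9.77 after Vehicle and 11.62, 11.60, 11.68 and 11.31 after Mild PE (1.52, SE 0.14, limma adjusted p = 0.0268). Ier3 kept its call in 3 of 7 fits, and Zfp36, Nfkbid, Map3k8, Pim1 and Cd83 each in 1. Pim1 read 6.96, 7.265 and 6.87 in the 18-h Vehicle rats, against 6.79 to 6.97 in the 2-h Mild PE rats.

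Interleukin 6 and its feedback genes gave no changed member among 14. The difference was 2.22 for Il6 (limma adjusted p = 0.16) and 1.86 for Clcf1, another ligand of the family (limma adjusted p = 0.10). Of the 14, 13 were above 0 with a median of 0.40, against 7630 of all 14217 genes above 0. The lists of TNF and interleukin 1 receptors, of chemokine receptors and of Toll-like receptors held no changed gene either. Tnfrsf1b, the second receptor of Tnf, differed by 1.38 (limma adjusted p = 0.077), and Tlr2, a sensor of microbial and damage signals, by 1.85 (limma adjusted p = 0.067). Of the 14 selectins and adhesion molecules 7 had an unadjusted p under 0.05, all higher, against 8.53% of all genes in that direction. None of the 14 changed. Their largest differences were those of Itgam, the alpha chain of the leukocyte integrin Mac-1 (1.67, limma adjusted p = 0.36), and Sele, the selectin of activated endothelium (1.64, limma adjusted p = 0.30).

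Immediate early transcription factors formed the other main group of rises. Of 19 measured, 5 rose (Egr1, Egr2, Nr4a1, Nr4a3 and Klf4), none fell, 18 differences were above 0 and the median was 0.63. Over all genes 0.331% rose and 7630 of 14217 differences were above 0. Egr2, a zinc finger factor, gave closely grouped values, 7.96, 8.28 and 8.27 after Vehicle and 10.07, 10.08, 10.05 and 10.11 after Mild PE. It was 3.76-fold higher (1.91, SE 0.09, limma adjusted p = 0.00467) and kept its call in all 7 fits without 1 rat. Egr1 read 9.85, 10.66 and 10.12 after Vehicle and 12.55, 12.66, 12.63 and 12.61 after Mild PE, 5.28-fold higher (2.40, SE 0.19). Nr4a1, an orphan nuclear receptor, read 10.19, 9.96 and 9.37 after Vehicle and 11.98, 12.26, 12.18 and 12.38 after Mild PE, 5.13-fold higher (2.36, SE 0.21). Its relative Nr4a3 rose by 2.80 (SE 0.32). Klf4, which endothelial cells also induce under flow, differed least, by 0.65 (SE 0.07), and its call was kept in none of the 7 fits. Egr1 kept its call in 3 fits, Nr4a1 in 2 and Nr4a3 in 1. The 18-h Vehicle rats read 10.51, 11.73 and 12.77 for Egr1, the last above all 2-h Mild PE rats. For Klf4 they read 12.85, 12.24 and 12.63, the first above all 2-h Mild PE rats.

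The AP-1 and ATF factors, which bind DNA as pairs, gave 3 rises among 14 genes and no fall, with a median of 0.26. Over all genes 0.331% rose. Atf3 read 8.03, 8.13 and 7.72 after Vehicle and 9.85, 9.97, 9.44 and 9.78 after Mild PE, 3.48-fold higher (1.80, SE 0.16, limma adjusted p = 0.0268). Junb rose by 1.76 (SE 0.19) and Fosl2 by 1.31 (SE 0.13). The calls of Atf3 and Junb were each kept in 1 of 7 fits and that of Fosl2 in none. In the 18-h Vehicle rats Fosl2 read 8.23, 7.61 and 6.66, the first above all 2-h Mild PE rats. Fos itself differed by 1.55 (limma adjusted p = 0.085), and the difference of Jun was 0.09 (SE 0.12), which turned to -0.0291 without Vehicle rat 3. Among 19 MAP kinase phosphatases and feedback inhibitors Dusp5, a phosphatase that acts on nuclear ERK kinases, rose by 1.35 (SE 0.13, limma adjusted p = 0.0302, kept in 2 of 7 fits). Dusp1, a broader phosphatase, differed by 1.16 (limma adjusted p = 0.21), its Vehicle rats being spread from 11.88 to 12.97.

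Promoters of genes that rose together are shown for Cxcl2 and Cd83, which hold a kappaB consensus, and for Egr2 and Dusp5, which hold a CArG box, the site of serum response factor. The windows run from 250 bases before to 50 after the start of the gene, in RefSeq on build GRCr8, and are read 5′ to 3′ on the strand of the gene, with the matches in capitals. Cxcl2 is on the minus strand at chr14:17467206-17467505, Cd83 on the minus strand at chr17:21112628-21112927, Egr2 on the minus strand at chr20:21054392-21054691 and Dusp5 on the plus strand at chr1:262543524-262543823.
Cxcl2: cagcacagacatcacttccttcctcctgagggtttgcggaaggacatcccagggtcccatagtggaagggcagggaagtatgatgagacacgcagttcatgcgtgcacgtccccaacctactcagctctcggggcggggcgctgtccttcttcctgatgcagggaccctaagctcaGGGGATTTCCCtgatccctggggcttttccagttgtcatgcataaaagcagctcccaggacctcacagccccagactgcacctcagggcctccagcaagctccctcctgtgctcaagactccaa
Cd83: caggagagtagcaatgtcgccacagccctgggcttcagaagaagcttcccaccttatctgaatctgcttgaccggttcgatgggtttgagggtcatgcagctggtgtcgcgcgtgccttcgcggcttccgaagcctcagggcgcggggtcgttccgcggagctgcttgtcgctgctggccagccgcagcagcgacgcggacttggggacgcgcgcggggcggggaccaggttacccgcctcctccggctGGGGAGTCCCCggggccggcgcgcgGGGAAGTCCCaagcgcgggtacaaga
Egr2: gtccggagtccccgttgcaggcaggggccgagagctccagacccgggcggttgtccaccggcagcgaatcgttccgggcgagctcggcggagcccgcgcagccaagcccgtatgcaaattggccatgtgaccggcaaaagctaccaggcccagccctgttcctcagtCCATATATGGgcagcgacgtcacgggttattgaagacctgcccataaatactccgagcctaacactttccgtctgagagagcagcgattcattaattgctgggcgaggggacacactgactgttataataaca
Dusp5: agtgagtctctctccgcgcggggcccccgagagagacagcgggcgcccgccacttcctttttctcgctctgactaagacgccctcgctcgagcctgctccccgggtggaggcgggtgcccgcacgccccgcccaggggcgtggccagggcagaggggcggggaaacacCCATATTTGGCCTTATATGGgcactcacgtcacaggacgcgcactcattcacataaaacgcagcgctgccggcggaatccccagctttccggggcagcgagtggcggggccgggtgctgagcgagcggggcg
Overlapping matches of the kappaB consensus merge into 1 run in Cxcl2 and in the first run of Cd83, and Dusp5 holds adjoining CArG boxes. The first run of Cd83 lies across the start of the gene and the other run after it. Both strands were searched. Of the 47 higher genes 37 had a window in the table, of which 7 held the kappaB consensus (18.9%) and 5 the CArG box (13.5%), and of the 14 lower genes 11 had a window, none with either motif. Over the 11700 measured genes with a window the shares were 9.73% and 1.35%. An AP-1 site (TGACTCA or TGAGTCA) was in 2 windows of the higher genes and in 3.79% of the measured genes' windows, and the cyclic AMP response element (TGACGTCA) in 2 and in 2.85%. Such matches are letters in a window and no measure of binding, and the window of Tnf held neither the kappaB consensus nor the CArG box.

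The remaining higher genes belonged to no single pathway. Esm1 (endocan), a proteoglycan that endothelial cells secrete, was the 1 changed gene among 20 angiogenic factors and rose by 1.73 (SE 0.15, limma adjusted p = 0.0232), from 7.45, 7.26 and 7.65 after Vehicle to 9.08, 9.21, 8.98 and 9.47 after Mild PE. Ppp1r15a, which directs the removal of a stress phosphate from a translation factor, rose by 1.12 (SE 0.08) and was the 1 higher gene among 23 of endoplasmic reticulum stress and ATF4. Depp1 rose by 1.56 (SE 0.09), and its call was kept in 6 of 7 fits. Mlc1, a membrane protein first known from astrocytes, read 5.90, 5.79 and 5.65 after Vehicle and 7.80, 8.03, 7.78 and 7.70 after Mild PE (2.05, SE 0.10), and kept its call in all 7 fits. Ctrb1, the precursor of the digestive protease chymotrypsin B, read 4.65, 4.86 and 4.45 after Vehicle and 8.33, 7.85, 7.87 and 8.51 after Mild PE, 11.2-fold higher (3.49, SE 0.21). Rises of about 4-fold were also found for Tspan18, a tetraspanin (2.04, SE 0.15), and Crim1, a membrane protein that binds bone morphogenetic proteins (1.98, SE 0.19). Shh, the secreted ligand Sonic hedgehog, was at the floor in all Vehicle rats and between 4.73 and 4.96 after Mild PE, barely above it. Of these genes Ctrb1 kept its call in 6 fits, Ppp1r15a, Tspan18 and Shh in 3, Esm1 in 2 and Crim1 in 1. Some rats without embolism reached higher levels of Ctrb1, Shh and Mlc1, as given above for Egr1, Klf4, Fosl2 and Pim1. In 18-h Vehicle rats 2 and 3 Ctrb1 read 9.12 and 8.90 and Shh 6.40 and 5.62, above all 2-h Mild PE rats. Both genes were at the floor in 18-h Vehicle rat 1. Mlc1 read 8.27 in that rat, also above all 2-h Mild PE rats, and 6.0 and 6.19 in 18-h Vehicle rats 2 and 3.

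Oas1b, of the antiviral oligoadenylate synthetase family, was the 1 interferon-stimulated gene of 22 that changed. It was at the floor in all Vehicle rats and read 7.10, 7.38, 6.45 and 7.04 after Mild PE, at least 7.97-fold higher (limma adjusted p = 0.0204, kept in 3 of 7 fits). The list had 8 members with an unadjusted p under 0.05, all higher, against 8.53% of all genes in that direction. Its median was 0.46. Mx2, another antiviral gene, was read by 2 probesets that disagreed. One of them went from 4.24, 4.0 and 4.62 after Vehicle to 11.25, 10.40, 11.08 and 9.30 after Mild PE, a difference of 6.23, whereas the brightest read 7.98, 7.15 and 7.39 after Vehicle and 7.11, 8.16, 6.83 and 7.15 after Mild PE. Trak2, an adaptor of transport along microtubules, likewise differed by 2.85 in one probeset and by 0.18 in the brightest. Altogether 11 genes changed only in a probeset that was not their brightest and are not among the 61. For Bcl6b, a repressor of endothelial cells, by contrast, all 4 probesets differed by between 1.46 and 1.6. Of the changed probesets of these 3 genes, that of Mx2 kept its call in 2 fits, that of Trak2 in 6 and that of Bcl6b in none.

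The 14 lower genes were a mixed set, of which no list held more than 1, and in 4 of them all Mild PE rats were at the floor. Their groups did not overlap, as for 6.82% of all genes in that direction. Clec3b (tetranectin), a secreted lectin that binds plasminogen, showed the largest difference among the brightest probesets of the genes. It read 10.31, 10.02 and 10.18 after Vehicle and 5.2, 4.0, 4.0 and 4.61 after Mild PE, at least 52.7-fold lower since 2 of the 4 rats were at the floor (-5.72, SE 0.33, limma adjusted p = 0.0103), and kept its call in all 7 fits. After Mild PE its second probeset never left the floor, at least 27.5-fold lower. C2cd4b read 6.54, 6.75 and 6.56 after Vehicle and was on the floor after Mild PE in 4 of 4 rats, at least 6.13-fold lower, and also kept its call in all 7 fits. Pdia5, a protein disulfide isomerase of the endoplasmic reticulum, read 9.97, 9.32 and 9.0 after Vehicle and 6.89, 7.10, 6.77 and 7.24 after Mild PE (-2.43, SE 0.25, limma adjusted p = 0.0359, kept in 2 of 7 fits). Ube3al1 read 8.36, 9.11 and 9.35 after Vehicle and 4.89, 5.09, 5.92 and 5.84 after Mild PE (-3.51, SE 0.37), and its call was kept in none of the 7 fits.

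Secreted and matrix proteins were among the other falls. Dpt (dermatopontin), a matrix protein made by fibroblasts, was bright in all rats and read 11.95, 11.95 and 12.36 after Vehicle and 11.04, 10.97, 10.97 and 10.82 after Mild PE (-1.14, SE 0.12, limma adjusted p = 0.0366). Both probesets of Dpt changed. Azgp1, a secreted zinc-binding glycoprotein, read 7.90, 8.04 and 7.98 after Vehicle and 6.82, 6.75, 6.47 and 6.80 after Mild PE (-1.26, SE 0.10). Coch (cochlin), another matrix protein, fell by 2.03 (SE 0.18) with 1 of 4 Mild PE rats at the floor, and Spock3, a proteoglycan, by 1.19 (SE 0.09) with 3 of 4. The enzymes Nat8f1, of the N-acetyltransferases, and Ces1c, a carboxylesterase, fell by 1.74 (SE 0.12) and by 1.11 (SE 0.11), with 2 and all 4 of the Mild PE rats at the floor. The falls of Coch, Spock3, Nat8f1 and Ces1c are therefore lower bounds. Of the 23 xenobiotic enzymes measured Ces1c was the 1 that changed, while the list's median was -0.36 and at an unadjusted p under 0.05 there were 6 members lower and 4 higher, against 7.01% and 8.53% of all genes. Tatdn3 fell by 0.97 (SE 0.08). The calls were kept in 4 of 7 fits for Nat8f1, in 3 for Azgp1 and Tatdn3, in 2 for Coch and Spock3 and in 1 for Dpt and Ces1c.

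**Figure D2:**
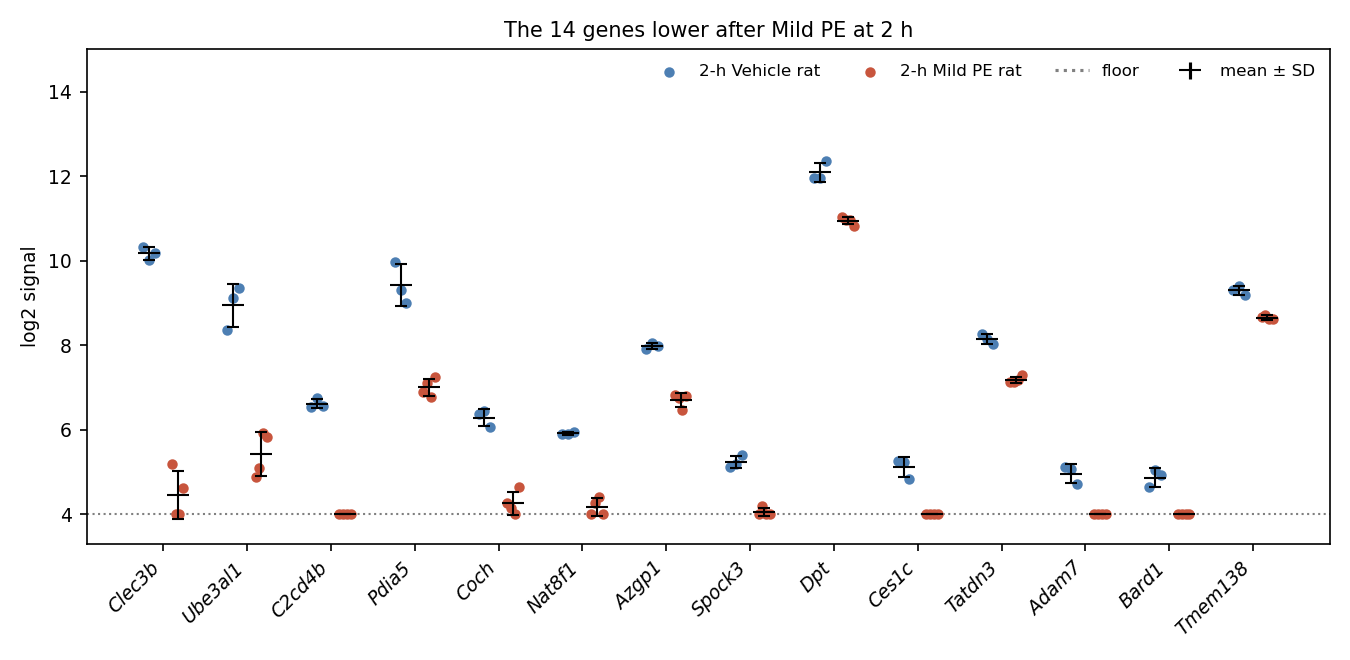
Log2 signal of the 14 genes that were lower after Mild PE in each rat, with 2-h Vehicle rats in blue and 2-h Mild PE rats in red; black bars are the mean ± SD and the dotted line is the floor of 4. The 2 groups do not overlap for any of the genes, and C2cd4b, Ces1c, Adam7 and Bard1 have all 4 Mild PE rats at the floor.

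The changed genes, divided by direction and by membership of the lists, were also read in the 15 rats outside the comparison. For each rat and gene it was counted whether the level was nearer to the 2-h Mild PE mean or to the 2-h Vehicle mean. Of the 17 higher genes that belong to the cytokine, chemokine, NF-kB, early transcription factor and phosphatase lists, 13 to 16 were nearer to Mild PE in the 2-h Severe PE rats, 11 to 17 in the 18-h Mild PE rats and 10 to 14 in the 18-h Severe PE rats, but 4 or 5 in the 18-h Vehicle rats. The 30 other higher genes were a mixed set that included Nfkbid, Map3k8, Cd83, Pim1 and Ccrl2, which are in none of those lists. Among them Cd83 read 11.55 to 12.51 and Map3k8 8.74 to 9.55 in the 2-h Severe PE rats, all nearer to Mild PE. As shares, the 18-h Vehicle rats and 18-h Mild PE rat 3 had more of the 30 than of the 17 genes nearer to Mild PE. In every other rat the share was smaller for the 30 genes. In the 18-h Mild PE rats 1, 2 and 3, 22, 21 and 22 of them were nearer to the 2-h Mild PE mean, but 13 in 18-h Mild PE rat 4, 10 to 15 in the 2-h Severe PE rats, 12 to 17 in the 18-h Severe PE rats and 9 in each 18-h Vehicle rat. Of the 14 lower genes 13, 12 and 11 were nearer to Mild PE in 18-h Mild PE rats 1, 2 and 3, against 7 in rat 4 and 4 to 6 in all rats of the other groups. So 18-h Mild PE rat 4 stood with its group at the signaling genes (16 of 17) and apart from it at the others. Its array was also weaker at the 5′ end, with a log2 difference between 3′ and 5′ Gapdh probesets of 0.491 against 0.196 to 0.208 in rats 1 to 3, and the part of this in the pattern was not tested.

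**Figure D3:**
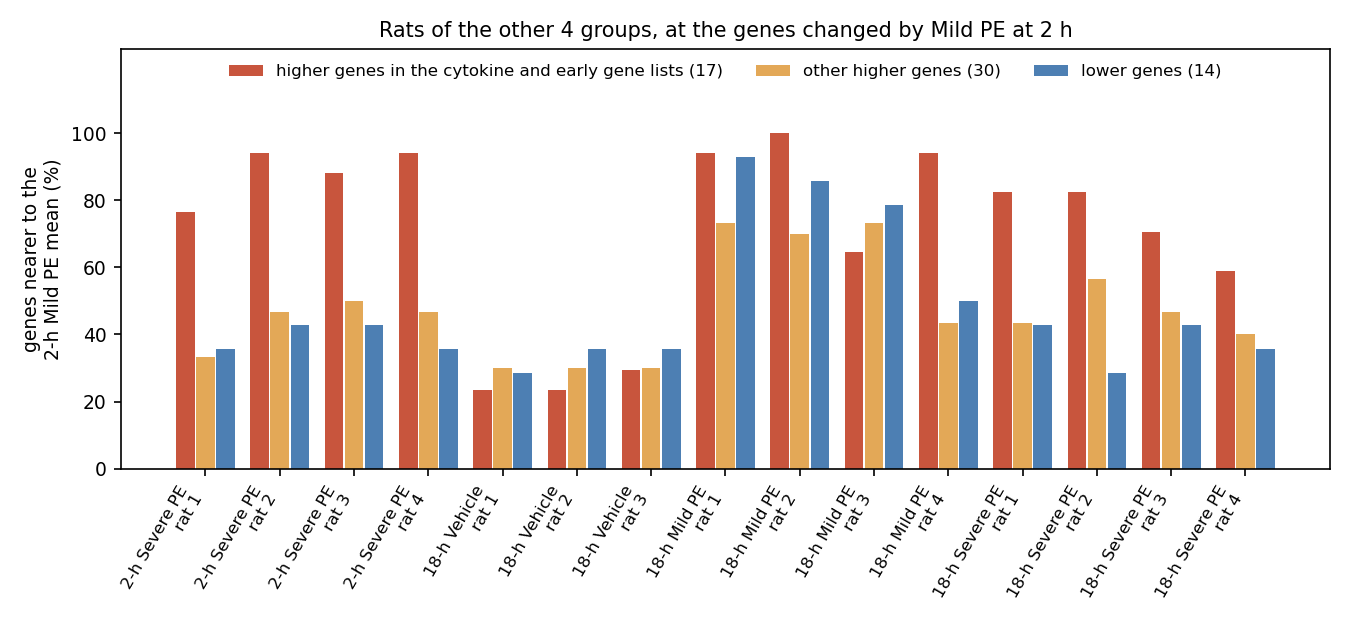
For each of the 15 rats outside the comparison, the share in percent of changed genes whose level was nearer to the 2-h Mild PE mean than to the 2-h Vehicle mean. Red bars are the 17 higher genes of the cytokine and early gene lists, yellow bars the 30 other higher genes and blue bars the 14 lower genes. The red bars are high in every group with embolism, and the blue bars only in 18-h Mild PE rats 1 to 3, with 11 to 13 of 14 genes.

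Single genes show the same division by rat. Ube3al1 read 5.12, 5.51 and 5.86 in 18-h Mild PE rats 1 to 3 and 8.91 in rat 4, with 7.01 to 8.61 in the 18-h Vehicle, 8.78 to 9.22 in the 2-h Severe PE and 8.66 to 8.97 in the 18-h Severe PE rats. Pdia5 read 7.06, 7.04 and 7.22 in the first 3 of these rats and 9.35 in the fourth, and from 9.22 to 10.63 in all 2-h Severe PE, 18-h Vehicle and 18-h Severe PE rats. Oas1b read 7.25, 6.54 and 5.82 in 18-h Mild PE rats 1 to 3, 4.0 in rat 4, and at most 4.66 in the rats of the other groups. The changed probeset of Mx2 read 9.60, 9.16 and 9.28 in rats 1 to 3 and 4.0 in rat 4; outside Mild PE it was under 5 in all rats but 1, a 2-h Severe PE rat at 8.57. Clec3b divided the rats in yet another way, at 4.0 in 1 and 10.09 to 10.65 in the other 3 of the 2-h Severe PE rats, at 4.0 to 5.05 in the 18-h Vehicle rats, at 8.40 in 18-h Mild PE rat 4 and at 5.03 in 1 and 8.83 to 9.22 in 3 of the 18-h Severe PE rats. Each of these genes thus took a low or a high level in single rats of groups treated alike. Of the rats named, 18-h Mild PE rat 4 had the weak 5′ end given above, and among the other groups 2-h Severe PE rat 1 and 18-h Vehicle rat 1 had Gapdh differences of 0.525 and 0.639. The part of 5′ signal in these levels was not tested, and the labels name no batch of rats or arrays.

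Markers of blood and immune cells were read beside the inflammatory genes. All 7 platelet and megakaryocyte markers measured had differences above 0 (median 0.59), against 7630 of all 14217 genes, and none changed. Of them 5 had an unadjusted p under 0.05, against 8.53% of all genes in that direction. The summed linear signal of the 7 markers was 5112 to 7845 in the Vehicle and 9120 to 10225 in the Mild PE rats, so the groups did not overlap. Of all single genes 8.34% did not overlap in that direction. Pf4, a chemokine stored in platelets, differed by 0.57 and Gp9, a platelet receptor chain, by 0.75. Of 10 neutrophil markers none changed, the median was 0.52, and their summed signal of 11516 to 29916 after Mild PE overlapped that of 13733 to 18366 after Vehicle. The neutrophil chemokine receptor Cxcr2 differed by 0.79 (limma adjusted p = 0.26). Of 12 macrophage and monocyte markers none changed and the median was 0.19. At an unadjusted p under 0.05, 5 of the 12 were higher and 0 lower, against 8.53% of all genes higher. Their summed signal was 39975 to 43228 after Vehicle and 43512 to 48058 after Mild PE, also without overlap, as for 8.34% of all single genes in that direction. None of the platelet, neutrophil or macrophage markers was at the floor in all 7 rats. The part of these cells in the rises of Tnf, Il1b and the chemokines was not tested.

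None of the markers of the lung's own cells was at the floor in all 7 rats, and 1 of them changed. Markers of alveolar type II cells had a summed signal of 149541 to 159500 after Vehicle and 145413 to 149629 after Mild PE, and none of the 12 changed. None of the 9 endothelial, 9 alveolar type I, 10 club and ciliated cell, and 10 smooth muscle markers changed either, with medians of 0.10, -0.08, -0.34 and 0.01. The summed signal of the endothelial markers was 51738 to 54688 after Vehicle and 55272 to 59298 after Mild PE, so those groups did not overlap. Of all single genes 8.34% did not overlap in that direction. The part of the endothelial sum in the rises of endothelial genes such as Esm1 was not tested. Among 10 fibroblast markers Dpt was the only one that changed and the median was -0.12. Their summed signal was 63174 to 69046 after Vehicle and 57856 to 62385 after Mild PE, again without overlap. In that direction 6.82% of all single genes did not overlap. T and NK cell markers (16 measured, median 0.02), B and plasma cell markers (7, median -0.23), mast cell markers (9, median -0.18) and erythroid markers (7, median 0.20) gave no changed gene. Heart muscle markers, 11 in all, gave none, with the largest differences in Myl2 (1.32, limma adjusted p = 0.23) and Nppb (1.20, limma adjusted p = 0.19).

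Programs that respond to low oxygen or to injury showed few changes at 2 h. None of the 25 HIF factors and hypoxia-responsive genes changed (median 0.01), and the largest difference was that of Adm, the vasodilator adrenomedullin (1.04, limma adjusted p = 0.18). None of the 27 coagulation and fibrinolysis genes passed the threshold. Plaur, the receptor of the plasminogen activator urokinase, differed by 1.5 (limma adjusted p = 0.082). No member changed among 20 metallothionein and antioxidant genes, 14 heat shock chaperones, 26 matricellular proteins and proteases, 25 genes of BMP and TGF-beta signaling, 19 of prostanoid synthesis and 19 of cholesterol synthesis, whose medians were 0.07, -0.05, -0.06, 0.11, 0.12 and 0.00. Ptgs2, the inducible cyclooxygenase, differed by 0.81 (limma adjusted p = 0.20). The antigen processing and MHC genes stood somewhat apart, with 15 of 16 differences above 0, a median of 0.42 and none changed. Over all genes 7630 of 14217 differences were above 0. RT1-DMa, which loads peptides onto MHC class II, differed by 0.98 (limma adjusted p = 0.094).

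**Figure D4:**
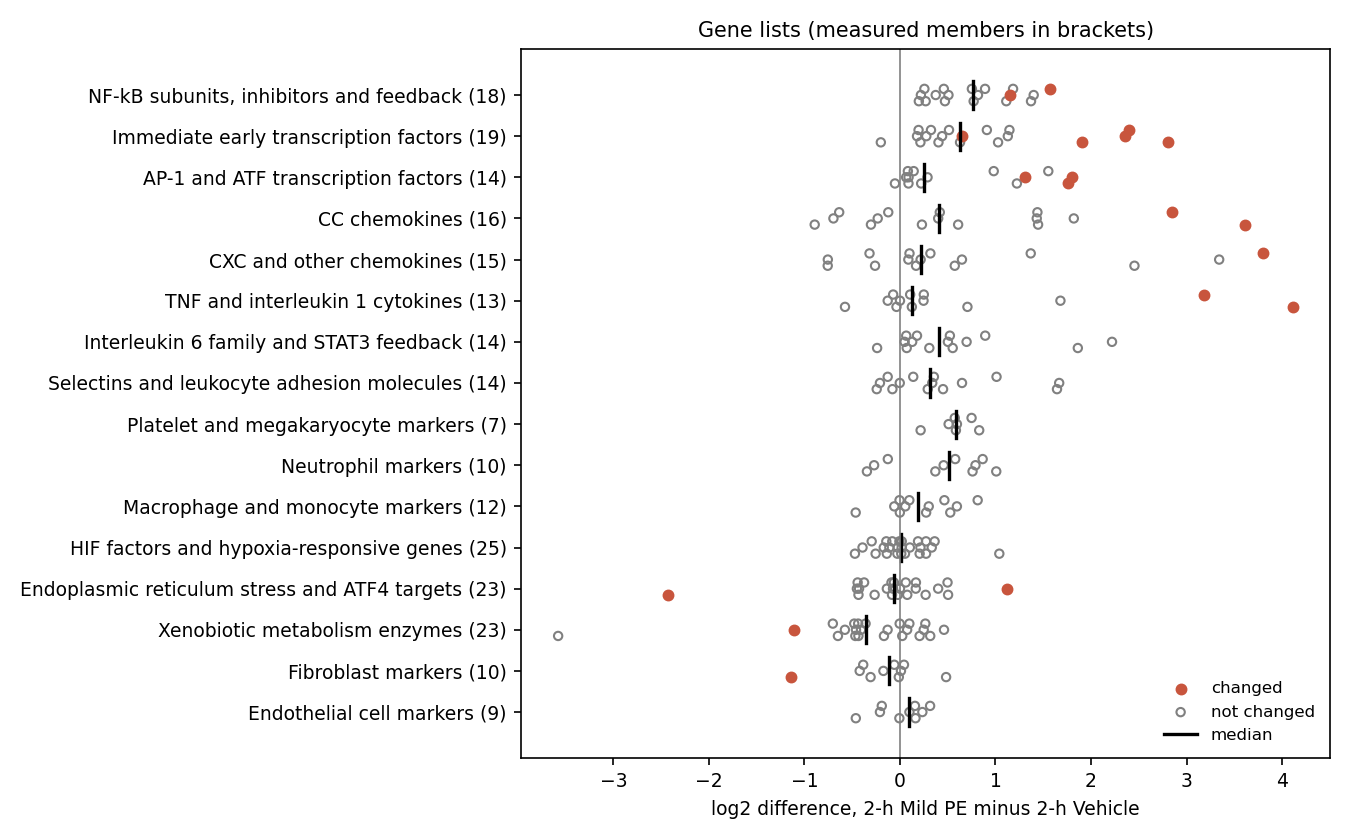
Log2 difference (2-h Mild PE minus 2-h Vehicle) of each measured member of 16 gene lists, with filled red points for changed genes, open grey points for the others and a black bar at the median. The NF-kB list lies wholly above 0 with a median of 0.76, and the hypoxia list is centred at 0.01. The largest rises are in the lists of TNF and interleukin 1 cytokines and of chemokines.

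The higher dose at the same time was compared directly with the lower. Severe PE minus Mild PE at 2 h changed 136 of 31042 probesets (0.438%) and 78 of 14217 genes (0.549%), and this test shares the 4 Mild PE rats with the comparison that defines the 61 genes. Of the 47 higher genes 9 were lower after Severe than after Mild PE and 1 was higher. Tnf read 9.45, 10.40, 9.48 and 9.71 after Severe PE, between the other 2 groups, and was lower than after Mild PE by a log2 difference of -1.69 (SE 0.23, limma adjusted p = 0.0398). Il10 read 4.0, 4.9, 4.0 and 4.0 after Severe PE (-2.68, limma adjusted p = 0.0237). The others lower after Severe PE were Oas1b, Ccrl2, Crim1, Esm1, Tiprl, Shh and 2810025M15Rikl. Egr1 was the exception, at 13.2 to 13.5 after Severe PE and higher than after Mild PE by 0.78 (limma adjusted p = 0.0148). For Cxcl2 (-0.62, SE 0.26), Ccl2 (0.56, SE 0.34) and Il1b (-1.04, SE 0.30) the difference between doses did not pass the threshold. Of the 14 lower genes 5 were higher after Severe PE, Ube3al1 (3.59), C2cd4b (4.34), Pdia5 (2.65), Nat8f1 (2.12) and Azgp1 (0.87), and C2cd4b was above Vehicle as well, at 8.19 to 8.52.

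The same dose at 18 h was set beside the 2-h response through the difference of the 2 effects, each against the Vehicle rats of its time, with the spread of all 22 arrays. That contrast changed 231 of 31042 probesets (0.744%) and 160 of 14217 genes (1.13%), and it includes the 7 rats that define the 61 genes. Of these 61, 10 passed, each with a smaller effect at 18 h or one of opposite sign. Tnf was higher by 4.11 at 2 h and by 1.75 at 18 h (difference -2.37, SE 0.42, limma adjusted p = 0.0207), reading 9.47, 9.67, 8.75 and 9.09 in the 18-h Mild PE rats and 7.41 to 7.60 in the 18-h Vehicle rats. Cxcl2, Il1b, Nfkbid and Ccrl2 gave differences of -2.10, -2.09, -2.14 and -2.34. Ccl2 did not pass, with an effect of 3.61 at 2 h and 4.76 at 18 h. Egr2 had effects of 1.91 and 1.75 at the 2 times. C2cd4b, lower by 2.62 at 2 h, was not lower at 18 h, with 6.74 to 8.59 in the Mild PE and 4.0 to 7.72 in the Vehicle rats (difference 4.10, limma adjusted p = 0.0309). Bard1, Pim1, Bltp3a and Ppp1r15a were the others that passed. Without the 3 arrays of low 5′ signal among the 14 rats of these groups (18-h Mild PE rat 4 and, of the Vehicle rats, rat 3 at 2 h and rat 1 at 18 h) the count over probesets was 45 in place of 231.

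**Figure D5:**
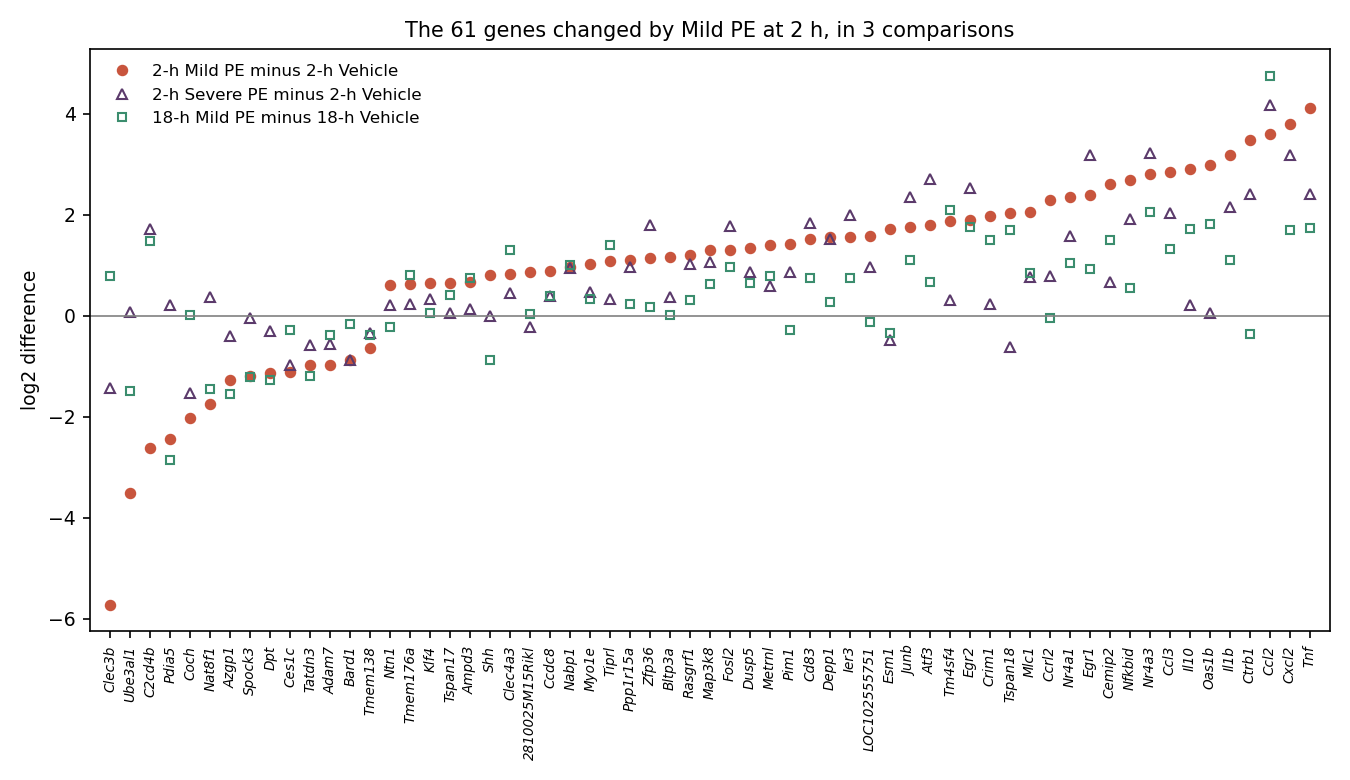
Log2 difference of the 61 changed genes, in order of the 2-h Mild PE difference (red circles), with the 2-h Severe PE difference (purple triangles) and the 18-h Mild PE difference (green squares) from the Vehicle rats of the same time. Both 2-h comparisons use the same 3 Vehicle rats. Tnf is at 4.11, 2.42 and 1.75 in the 3 comparisons, and Clec3b at -5.72, -1.44 and 0.79.

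Changed probesets without a single gene symbol in the annotation numbered 28, of which 23 were higher. The one with the largest rise, by 3.82, read 7.45, 7.60 and 7.28 after Vehicle and 11.18, 11.27, 11.27 and 11.36 after Mild PE, and stayed between 9.20 and 11.06 in the rats of the other groups with embolism, against 7.58 to 9.27 in the 18-h Vehicle rats. It was chosen for its size after the values were seen.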

How the data were processed

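Right lung RNA of 22 rats was hybridised to Affymetrix rat genome arrays. The deposited values are linear signal intensities, 1 per probeset, which the authors scaled to a common trimmed mean (500.1 to 500.2 per array with 2% trimmed at each end); the tool that made them is not given in the sources used here, and they are not the GC-RMA log2 values of the study's methods. From the 31099 probesets 57 controls were left out. Intensities under 16 were set to 16 (15.1% to 16.3% of probesets on the 7 arrays), taken to log2 and quantile normalized over 22 arrays. Platform annotation gave 20826 probesets 1 symbol, 436 several and 9780 none, and a gene was read by its brightest probeset.

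The 3 Vehicle and 4 Mild PE rats at 2 h were compared with limma 3.58.1 in R 4.3.3 (lmFit and eBayes without a trend, adjusted over all probesets), tested first on simulated data. The comparisons of doses and of times used limma likewise. The number of arrays limits the precision. The p-values set each difference against the spread between these rats, which limma moderates over all probesets. Within a group wholly at the floor that spread is hidden. The 48 gene lists (764 of 865 members matched) and the rats compared were chosen with earlier results of these data known. Named were the 15 largest rises and 12 largest falls, up to 4 changed members of a list, the 1 or 2 members with the smallest p of lists without one, and genes named after their values were seen. Alternatives were other normalizations, floors, filters and tests, the replicate number as a block, the mean over probesets of a gene and each rat left out in turn; 2 (probesets at the floor on any array left out, and arrays of low 5′ signal left out) were chosen after seeing the data. Promoter windows are from RefSeq, build GRCr8.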

Additional observations from a re-analysis of the deposited data

Results flagged for a closer look

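The effect of Mild PE differed between 2 h and 18 h, by limma's contrast of the 2 effects, for 10 of the 136 genes examined. Over all genes 160 of 14217 (1.13%) passed that contrast at 1.5-fold and an adjusted p under 0.05. The 136 genes were named in part for their 2-h differences or p-values, and the contrast reuses those 2-h rats. The count of 10 therefore cannot be set against that share. The effect at 18 h minus that at 2 h was -2.37 for Tnf, -2.10 for Cxcl2, -2.09 for Il1b, -2.14 for Nfkbid, -2.34 for Ccrl2, -1.71 for Pim1, -0.88 for Ppp1r15a and -0.65 for Vwf, and it was 4.10 for C2cd4b and 2.07 for Timp1, an inhibitor of metalloproteinases that had no changed level at 2 h.

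A single 2-h Mild PE rat stood apart from the other 3 for 10 of the 136 genes. The cutoff used marks about 1 in 20 groups of normal values. That rate does not hold for values set to the floor or for genes named in part for their 2-h values. The count of 10 therefore cannot be set against it. The gap to the nearest rat as a fraction of the group's range was 0.864 for Il1b, 1 for Spock3 and for Grem1 (3 of 4 rats at the floor), 0.853 for Areg, 0.874 for P4ha2, 0.855 for Fkbp5, 0.907 for Bcl2a1, 0.891 for Tnfaip3, 0.832 for Hif1a and 0.872 for Myo1e. For Il1b the rat apart was Mild PE rat 4, at 11.97 against 12.47 to 12.54, still above all Vehicle rats. For Myo1e it was Mild PE rat 1, at 10.27 against 10.54 to 10.58.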

How the results depend on the processing

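Of the 45 named genes that changed, none reversed under any alternative; median centring kept the call of 44, no further normalization, quantile normalization of the 7 arrays alone and a variance trend that of 45, the mean over a gene's probesets that of 42, 1 fit over all 22 arrays that of 30, a floor of 64 that of 28, the methods' t-test that of 7 and the replicate block that of 0. Leaving out 1 rat kept 5 to 34 of the 45, 5 being without Mild PE rat 1 and 34 without Vehicle rat 3. Neither a fit without 1 rat nor another test could have reversed a changed gene, since its groups did not overlap. Median centring turned the difference of Hopx, which had not changed, to 0.0203, and the differences of Cxcl1 (-0.0138 to 0.289 without 1 rat) and Jun (-0.0291 to 0.184 without 1 rat) also crossed 0. For changed probesets, and of them higher and lower, the counts of 103, 78 and 25 became 67, 51 and 16 with a floor of 64, 243, 181 and 62 with dim probesets left out, and 193, 148 and 45 with probesets at the floor on any array left out. The methods' t-test gave 15, 11 and 4, and 1281 at 1.5-fold and an unadjusted p under 0.05. Changed genes numbered 151 with dim probesets left out, 104 with floor probesets left out and 8 by the methods' t-test, in place of 61. Leaving out 1 rat gave 13 to 128 probesets (9 to 78 higher, 4 to 50 lower) and 6 to 62 genes. The replicate numbers did not pair the rats (correlations of deviations 0.01, -0.04 and 0.06; 1 of 3 Vehicle rats correlated best with its own number), and with the replicate number as a block, which drops Mild PE rat 4, limma called 0 probesets and 0 genes, with 3215 probesets at an unadjusted p under 0.05.

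Between doses at 2 h the count of 136 probesets became 84 with a floor of 64, 1 with the replicate block and 44 to 346 without 1 rat, 346 being without Severe PE rat 1. The count of 231 probesets that differed between times became 77 with median centring, 110 with the replicate block, 61 to 461 without 1 rat (461 without 18-h Mild PE rat 3) and 45 with the 3 arrays weak at the 5′ end left out. The causes were not tested. Signals at the floor limit the folds of 8 changed genes with a whole group at the floor to bounds, and those of Clec3b, Nat8f1, Spock3 and Coch, with 1 to 3 of 4 Mild PE rats at it, likewise.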
